A study of Mus musculus with 8 samples.

Results

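RNA that came down with rabbit IgG, an antibody with no CPEB target, was compared with the RNA of the same striatal lysates in 4 arrays of a series of 8. The 4 arrays are those titled for rabbit IgG precipitation (RIP) and for input, 1 of each from a WT pool and 1 of each from an HD pool. They were chosen by title alone, and the IgG array of a pool was set against the input array of that pool. The other 4 arrays carry RNA precipitated with anti-CPEB1 or anti-CPEB4 and are given only as values beside those of IgG. Per the labels, all groups hold total striatum of male mice aged 7 to 8 months, pooled by genotype. The design text names 4 mice and does not say how many entered each pool, and no allele or strain is given for WT or HD. HD is not spelled out in the labels. All lysates were crosslinked with formaldehyde and cleared with bare beads before the input aliquot was taken. All RNA was amplified over 27 cycles, and 8 µg of cDNA went on each array.

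In RNA immunoprecipitation an antibody on beads pulls a protein out of a lysate together with the RNA crosslinked to it. Some RNA is carried along without the target, on the beads, on the antibody or in large complexes, and the control antibody measures that share. Long noncoding RNAs held in the nucleus, ribosomal protein mRNAs and the abundant mRNAs of a tissue are the kinds of RNA usually watched in such a control. In striatum the abundant mRNAs include those of medium spiny neurons, the projection neurons that make up most of its nerve cells.

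Each value is a log2 probe set summary, so a difference of 1 is 2-fold. Of 17097 genes with a probe set of a single symbol, 11345 averaged more than 4.23 over the 8 arrays, a level that splits all probe sets into equal parts, and were tested. A gene can pass that filter through the fraction in which it is high. The values come without detection calls, so whether a value near 4 lies above background is unknown. A fold against such a value is a fold of array values only. Of 39 medium spiny neuron markers, a check on the labelled tissue, 33 lay above 4.23 on both inputs. Most genes tested did so as well, with 614 of the 11345 below 4.23 on the WT input and 735 on the HD input. The count alone therefore does not identify the tissue. Ppp1r1b, which codes for DARPP-32, stood at 11.07 and 10.30 on the WT and HD inputs. The dopamine receptor genes were low on these probe sets, with Drd1 at 4.53 and 4.47 and Drd2 at 4.56 and 5.05, and Tac1, at 3.22 and 3.92, was below the filter. The array medians ran from 4.03 to 4.28. The SD over genes was 1.33 and 1.51 for the WT and HD inputs, and 1.42 and 1.28 for the IgG arrays of the same pools. The input was thus the wider array of the HD pool and the narrower one of the WT pool.

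Few RNAs stood apart from input with IgG in the same way in both pools. At 2-fold or more in both pools, 189 of 11345 genes were higher with IgG (1.67%) and 379 were lower (3.34%). That imbalance depended on the scaling, since cyclic loess gave 288 and 295, and quantile normalization 320 and 354. Within the WT pool alone 1169 genes were 2-fold higher (10.3%) and 1164 lower (10.3%), and within the HD pool 692 were higher (6.1%) and 1529 lower (13.5%). The 189 shared genes made up 16.2% of those higher in WT and 27.3% of those higher in HD. The 379 shared genes made up 32.6% of those lower in WT and 24.8% of those lower in HD. Across the genes tested, which are not independent replicates, the difference in one pool had a Pearson correlation of 0.16 with that in the other, and 58.7% of genes had the same sign in both. Both IgG arrays lay above both inputs for 1879 genes (16.6%) and below both for 3402 (30.0%).

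**Figure D1:**
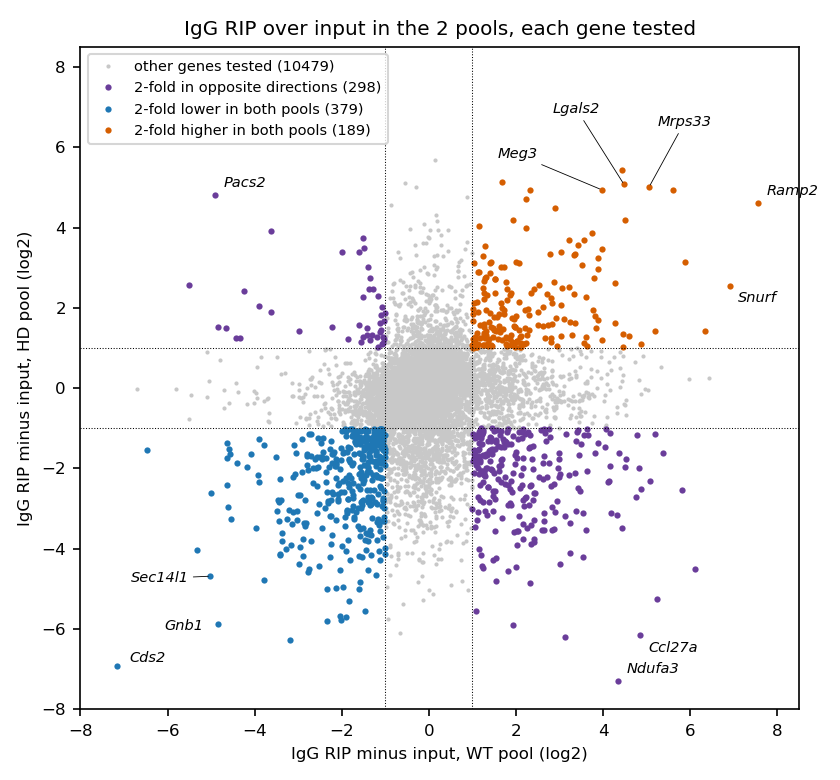
Log2 difference between IgG RIP and input in the WT pool (x axis) and in the HD pool (y axis) for the 11345 genes tested, 1 point per gene, with dotted lines at 2-fold. The 189 genes 2-fold higher and the 379 genes 2-fold lower in both pools occupy the upper right and lower left corners, and the correlation across all genes is 0.16.

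The limma test over all 8 arrays, with fraction and pool in the model, passed 2 genes that were higher with IgG (0.0176%) and 1 that was lower (0.00881%) at an adjusted p under 0.05. Before adjustment 357 genes were higher (3.15%) and 749 lower (6.6%) at p under 0.05. This split too moved with the scaling: with cyclic loess it was 598 higher and 578 lower, and with quantile normalization 656 and 648. Without any 1 of the 8 arrays no gene passed limma's adjusted threshold. Unadjusted counts were then between 284 and 503 higher and between 373 and 1003 lower.

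Mrps33, a protein of the small subunit of the mitochondrial ribosome, rose by 5.04 ± 0.25 (SE of the limma fit, adjusted p = 0.0322). Its input values were 3.92 in WT and 3.47 in HD, and its IgG values 8.98 and 8.48. The precipitates with the CPEB antibodies were as high, at 8.79 and 8.14 for CPEB1 and 8.39 and 8.11 for CPEB4, so all 6 precipitates lay far above both inputs.

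Lgals2, the lectin galectin-2, rose by 4.78 ± 0.28 with IgG (limma, adjusted p = 0.0322). It stood at 5.28 and 5.50 on the inputs and at 9.76 and 10.58 on the IgG arrays. Here the CPEB precipitates stayed near input, at 5.62 and 5.78 for CPEB1 and 4.81 and 5.14 for CPEB4. A second probe set of Lgals2 did not follow, with differences of 0.07 in WT and 0.78 in HD. Averaging both probe sets gave 2.60 with a limma adjusted p of 0.163.

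Sec14l1, a member of the SEC14-like lipid-binding proteins, fell by 4.85 ± 0.29 (limma, adjusted p = 0.0322). Input gave 9.84 and 9.40 and IgG gave 4.82 and 4.71. CPEB1 stood at 8.53 and 8.02 and CPEB4 at 8.39 and 8.55, between IgG and input and nearer to input. The next smallest limma adjusted p, 0.0542, was shared by Cenpb and Glo1, higher with IgG by 4.35 and 3.50, and by Cds2, with a log2 difference of -7.04. Glo1, a glyoxalase, is outside the rule for named genes and was picked after its value was seen; averaging its probe sets gave -0.25.

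The 15 genes with the highest mean difference, all 2-fold higher in both pools, ran from 3.62 to 6.08. They mixed imprinted and nuclear RNAs, membrane and vesicle proteins, and a gene of the epidermis. Ramp2, the partner protein of the calcitonin-like receptor, had the highest mean, 6.08 ± 0.87 (limma, adjusted p = 0.194). Its inputs stood at 4.27 and 7.63 and its IgG arrays at 11.83 and 12.24. Of its other probe sets above the filter, 1 was higher by 4.95 and 4.77, while the other one differed by -0.12 and -0.01.

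Meg3, a maternally expressed long noncoding RNA of an imprinted locus, rested on 2 close inputs, 7.46 and 7.15. Its IgG arrays reached 11.43 and 12.10, a mean difference of 4.45 ± 0.41 (limma, adjusted p = 0.103). Of 9 other Meg3 probe sets, 4 were 2-fold higher in both pools, 6 were higher in both and 1 was lower in both. Snurf is read from the same transcript as the imprinted splicing protein Snrpn. Its inputs were far apart, 4.82 in WT and 9.47 in HD, against 11.73 and 12.02 with IgG. The chosen Snrpn probe set differed by 0.76 in WT and -1.25 in HD, so the shared transcript was not uniformly higher with IgG.

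Cenpb, the centromere-binding protein, had 4.09 and 5.23 on input and 8.60 and 9.42 with IgG. Pdlim5, a PDZ and LIM domain protein, had 3.93 and 3.32 on input and 8.38 and 8.76 with IgG. Of its 4 other probe sets, 1 was higher by 3.80 and 4.02 and the other 3 were not 2-fold in both pools. Among the rest of the 15 were Atp2b1, a plasma membrane calcium pump, at 3.80 ± 0.44 and Rsrc2, an arginine- and serine-rich protein, at 3.72 ± 0.47. The other probe sets of Atp2b1 did not follow, with -0.07 in WT and 0.13 in HD, and with -0.77 and -0.46. Rab26, a small GTPase of vesicles, stood at 3.63 ± 0.66, with both inputs near 4 (3.93 and 4.12) and both IgG arrays above 7 (7.49 and 7.82).

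Other members of the 15 had inputs that disagreed. Nucks1, a nuclear phosphoprotein, had 4.53 on the WT input and 9.85 on the HD input against 10.87 and 11.28 with IgG. Serhl, a serine hydrolase-like gene, had 4.16 and 7.13 against 10.03 and 10.27, and its second probe set went the other way in both pools, by -1.89 and -1.43. Clta, clathrin light chain A, had 9.08 and 6.79 against 11.39 and 11.71. For these genes the IgG arrays were close to each other and the spread sat in the inputs. Mean differences were 3.88 ± 1.34 for Nucks1, 4.51 ± 1.01 for Serhl, 3.62 ± 0.78 for Clta and 4.73 ± 1.20 for Snurf, with limma adjusted p between 0.321 and 0.474.

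**Figure D2:**
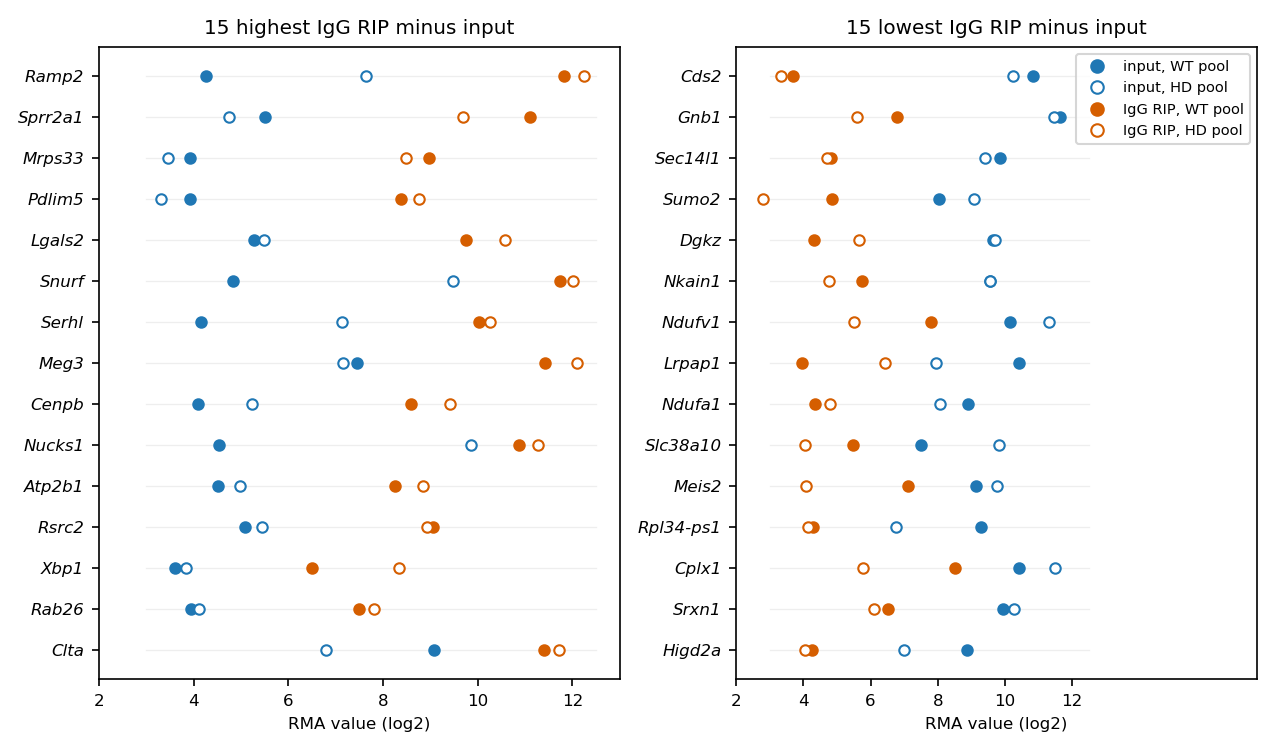
RMA values (log2, x axis) of the 15 genes with the highest (left) and the 15 with the lowest (right) mean difference between IgG RIP and input among genes 2-fold in both pools; filled circles are the WT pool, open circles the HD pool. IgG and input do not overlap for any of the 30 genes, which the rule for choosing them fixes for pairs within a pool, and the 2 inputs of Snurf, Nucks1 and Ramp2 lie over 3 apart.

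Some genes were higher on the IgG arrays than on every other array, CPEB precipitates included. For 458 genes (4.04%) both IgG arrays lay above the other 6, and for 786 (6.93%) below them. No other pair of arrays was counted in this way, so whether these shares exceed those of any 2 arrays is unknown. The gap was at least 1 for 5 genes above (0.0441%) and 49 below (0.432%). Of the 10 widest gaps above, 3 belonged to genes among the 15 highest over input, Lgals2, Xbp1 and Sprr2a1. The widest, 3.98, was that of Lgals2. Xbp1, the transcription factor of the unfolded protein response, came next with 1.65. Xbp1 had 3.60 and 3.85 on input, 6.50 and 8.33 with IgG, 3.32 and 4.85 with CPEB1 and 3.82 and 4.85 with CPEB4. Its second probe set gave -1.38 in WT and 1.49 in HD.

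S100a11, a calcium-binding S100 protein, had 5.56 and 4.96 on input and 7.13 and 6.72 with IgG, while all 4 CPEB arrays lay between 4.64 and 5.31. Wfdc18, a whey acidic protein domain gene, had 5.85 and 5.48 against 6.89 and 8.61. Dus3l, a tRNA dihydrouridine synthase, had 7.92 and 8.89 against 9.89 and 9.93. Each of these 3 was higher with IgG than in both CPEB precipitates of the same pool, which the rule for choosing them fixes. The mean differences over input were 1.66 ± 0.34 for S100a11 and 2.08 ± 0.53 for Wfdc18, and for all 3 genes the limma adjusted p lay between 0.311 and 0.385.

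The rest of the 10 with the widest gaps were Dnajb1, Ddx5, Pdpr, Entpd5 and Sprr2a1. Dnajb1, an HSP40 co-chaperone, differed by 3.29 in WT and 1.33 in HD. Ddx5, an RNA helicase, had 3.49 and 4.06 on input against 7.76 and 6.69 with IgG. For both genes another probe set was lower with IgG, by -1.61 and -1.02 for Dnajb1 and by -0.89 and -0.33 for Ddx5. Pdpr, a regulator of pyruvate dehydrogenase phosphatase, differed by 2.57 ± 0.53 and Entpd5, a nucleotide phosphohydrolase, by 1.05 ± 0.25. Another probe set above the filter gave -0.97 in WT and -0.02 in HD for Pdpr, and 0.64 and 0.40 for Entpd5. Sprr2a1, a small proline-rich protein of the cornified layer of skin, had 5.51 and 4.76 on input and 11.11 and 9.69 with IgG, and its HD arrays of CPEB1 (8.00) and CPEB4 (8.86) were high as well.

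**Figure D3:**
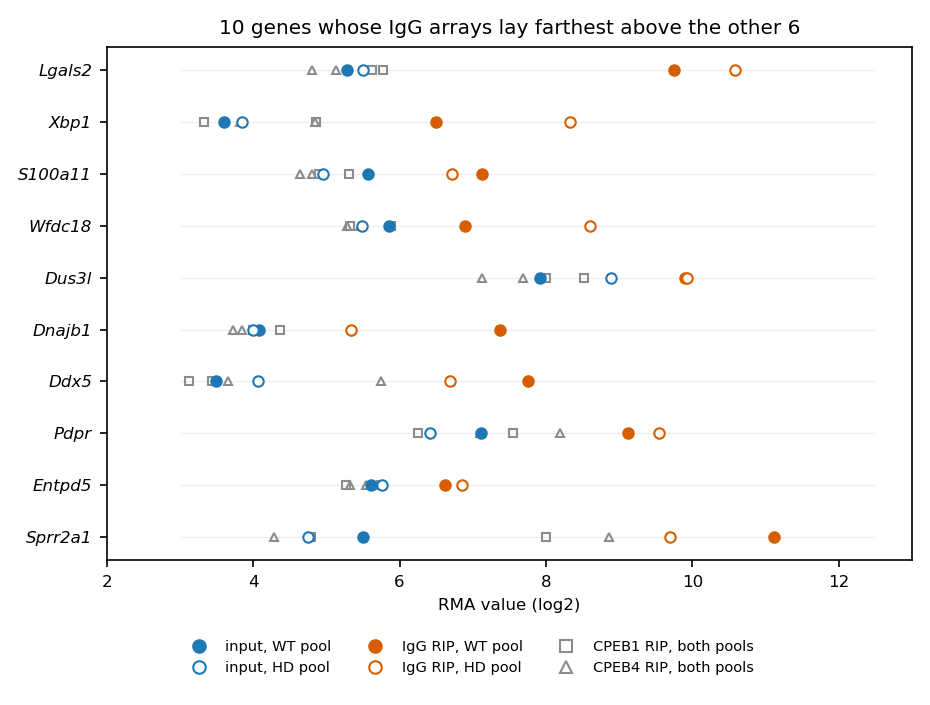
RMA values (log2, x axis) on all 8 arrays of the 10 genes whose lower IgG array lay farthest above the highest of the other 6; circles are input and IgG RIP (filled WT, open HD), grey squares CPEB1 RIP and grey triangles CPEB4 RIP. The gap is 3.98 for Lgals2 and 0.82 for Sprr2a1.

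Set against the same inputs, the 3 antibodies gave these medians for the 189 genes that were 2-fold higher with IgG: 1.44 for CPEB1 and 1.80 for CPEB4, beside medians of -0.01 and -0.15 over all genes tested. For the 379 genes 2-fold lower with IgG the medians were -0.90 and -0.31. The 3 comparisons share the input arrays, so these values are not independent of one another. Mean differences from input for IgG, CPEB1 and CPEB4 were 4.45, 3.78 and 3.68 for Meg3. They were 4.35, 6.04 and 5.84 for Cenpb, and 3.72, 2.95 and 3.96 for Rsrc2. They were 4.78, 0.31 and -0.41 for Lgals2, and 4.95, 1.02 and 5.34 for Pdlim5. Ddx5 stood at 3.45 for IgG, -0.50 for CPEB1 and 0.93 for CPEB4.

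The 379 genes lower with IgG had a median value of 8.04 on input and 5.94 with IgG, and the 189 higher genes 5.64 on input and 8.00 with IgG. The choice of both sets by the difference fixes that order. The 15 lowest ran from -7.04 to -3.78. Cds2, a CDP-diacylglycerol synthase of phosphoinositide synthesis, differed by -7.04 ± 0.53 (limma, adjusted p = 0.0542). It had 10.85 and 10.24 on input and 3.68 and 3.32 with IgG. CPEB1 and CPEB4 stood between 8.58 and 10.17 for this gene. Its 4 other probe sets did not follow, with differences between -2.22 and 1.23.

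Gnb1, the G protein subunit β1, had 11.63 and 11.46 on input and 6.79 and 5.58 with IgG, a difference of -5.36 ± 0.55 (limma, adjusted p = 0.113). Its strongest other probe set gave -0.06 in WT and -2.40 in HD. Sumo2, a ubiquitin-like modifier, had 8.02 and 9.07 on input and 4.83 and 2.79 with IgG. For Sumo2 the CPEB1 arrays (4.15 and 4.35) lay with IgG and the CPEB4 arrays (9.06 and 9.38) with input. Dgkz, diacylglycerol kinase ζ, had 9.64 and 9.69 against 4.33 and 5.67, and Nkain1, a protein that binds the sodium pump, had 9.55 and 9.55 against 5.76 and 4.76.

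Ndufv1 at -4.07 ± 0.89 and Ndufa1 at -3.90 ± 1.07, both subunits of complex I, were among the 15. So was Higd2a, an assembly factor of complex IV, at -3.78 ± 0.57. Cplx1, the synaptic complexin 1, had 10.42 and 11.48 on input and 8.52 and 5.76 with IgG. Meis2, a homeobox factor of striatal neurons, had 9.15 and 9.77 against 7.10 and 4.09. Srxn1, the antioxidant enzyme sulfiredoxin, was the most even of this group, with 9.93 and 10.26 against 6.52 and 6.09 (-3.79 ± 0.38, limma adjusted p = 0.108). Rpl34-ps1, a pseudogene of ribosomal protein L34, differed by -3.81 ± 0.62 and Slc38a10, an amino acid transporter, by -3.90 ± 1.04. For Lrpap1, a chaperone of LDL receptor-related proteins, both fractions differed between the pools, with 10.41 and 7.95 on input and 3.95 and 6.42 with IgG.

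Probe sets of one gene often did not go together. Of 3407 genes with a second probe set above the filter, 54.3% had the same sign of the mean difference, and the correlation across those genes was 0.09. Of 100 genes 2-fold higher with IgG, 41 second probe sets had the same sign and 4 were 2-fold higher in both pools. Of 187 genes 2-fold lower, 122 (65.2%) had the same sign and 24 were 2-fold lower in both pools. Averaging the probe sets of each gene left 83 genes 2-fold higher and 248 lower in place of 189 and 379.

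Among the 15 highest genes, 9 had another probe set above the filter, and for 4 of them (Meg3, Nucks1, Pdlim5 and Ramp2) one was 2-fold higher in both pools too. Among the 15 lowest, 10 had another and 1 (Nkain1) had it 2-fold lower in both pools. Ttr, transthyretin of the choroid plexus, had probe sets that went opposite ways. Its chosen probe set had 6.60 and 10.49 on input and 9.43 and 10.79 with IgG, a mean difference of 1.56. Its other probe set had 8.69 and 10.76 on input and 3.46 and 3.82 with IgG. What sets probe sets of a gene apart was not tested.

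**Figure D4:**
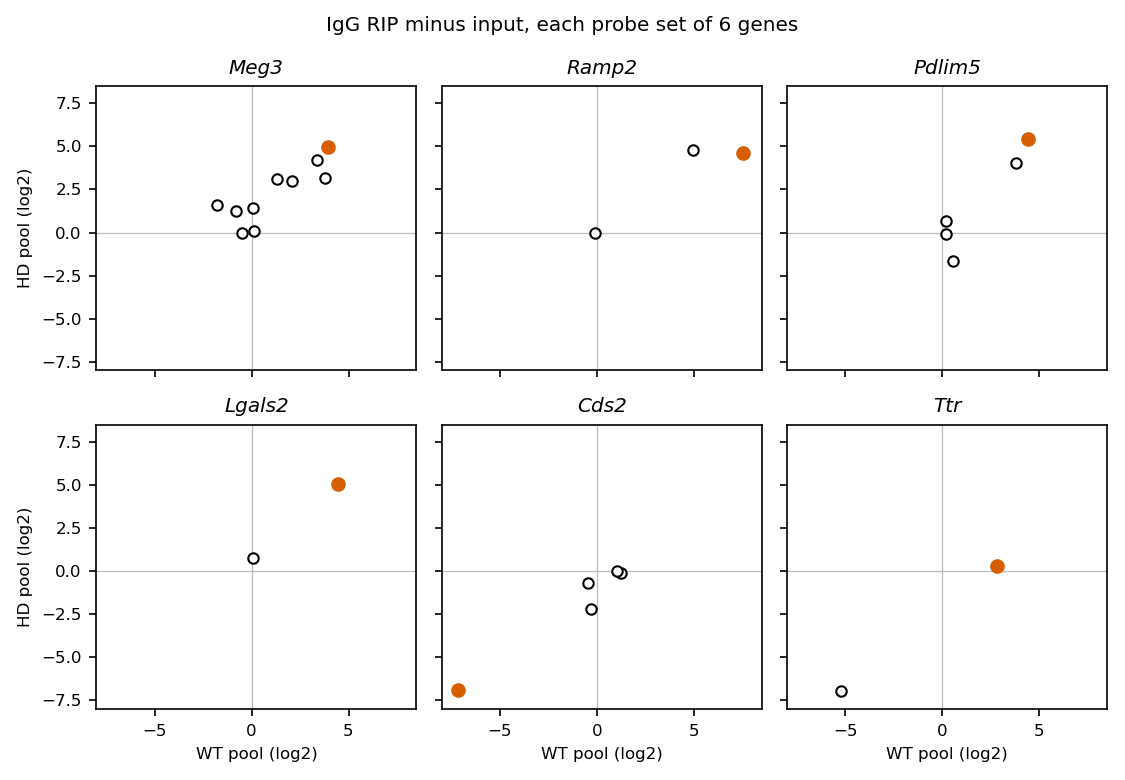
Log2 difference between IgG RIP and input in the WT pool (x axis) and the HD pool (y axis) for each probe set of Meg3, Ramp2, Pdlim5, Lgals2, Cds2 and Ttr; the filled point is the probe set that represents the gene, open points are the others. Several Meg3 probe sets lie in the upper right corner, while the filled points of Lgals2 and Cds2 stand alone.

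Of the gene lists with over 1 tested member, nuclear long noncoding RNAs had the highest median of the mean difference. The list holds RNAs known to stay in the nucleus or at chromatin, and its 14 tested members had a median of 0.40 in WT and 0.27 in HD (0.51 for the mean of both pools), beside -0.15, -0.05 and -0.11 over all genes. It was above 0.5 under each scaling tried, from 0.51 to 0.65. Malat1 and Meg3 were 2-fold higher in both pools (14.3%, beside 1.67% of all genes) and no member was 2-fold lower (3.34% of all genes). With genes split into 4 equal classes by mean level, 4.3% of the highest class were 2-fold higher and 9.87% lower. No member passed limma's adjusted threshold, and 2 higher and 1 lower had an unadjusted p under 0.05, beside 3.15% and 6.6% of all genes. Malat1, an abundant RNA of nuclear speckles, had 7.33 and 7.72 on input and 10.05 and 10.07 with IgG, a difference of 2.53 ± 0.29 (limma, adjusted p = 0.146). Malat1 was also high with CPEB1 (9.32 and 9.05) and CPEB4 (9.63 and 9.35), so that the 2 inputs were its lowest arrays.

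The list did not move as one. Neat1, the RNA of paraspeckles, went the other way at -0.80 ± 0.29, with 5.28 and 5.21 on input and 4.39 and 4.50 with IgG. Miat was even in WT (6.63 and 6.63) and higher with IgG in HD (6.40 and 10.14). Of 14 members, 5 were higher in both pools and 2 lower in both.

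By annotated class, 9 of 502 genes of biotype lncRNA were 2-fold higher with IgG (1.79%) and 3 lower (0.598%). Of 10691 protein-coding genes 178 were higher (1.66%) and 372 lower (3.48%). The share of lncRNA genes that were higher was close to the background of 1.67%. Among 7 hosts of small nucleolar RNAs, Snhg8 alone was 2-fold higher (14.3%), with 3.79 and 6.06 on input and 7.56 and 8.00 with IgG. It was still higher with CPEB4 (10.34 and 9.77).

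Cytosolic ribosomal protein mRNAs went in opposite directions in the 2 pools. The median of 68 genes was 0.57 in WT and -1.12 in HD. Median values were 9.02 on input and 9.51 with IgG in WT, and 10.03 on input and 8.57 with IgG in HD. Of the 68, 28 had a difference lower by 2 or more in HD than in WT (41.2%, beside 8.64% of all genes and 23.0% of the top level class, the genes with the highest means when genes are split into 4 equal classes). The HD input exceeded the WT input for 57 of the 68 (83.8%, beside 43.4% of all genes and 58.7% of that class). The HD IgG array was below the WT IgG array for 48 (70.6%, beside 44.3% and 56.5%). At 2-fold in both pools 3 were higher (4.41%) and 7 lower (10.3%), close to the 4.3% and 9.87% of that top class. Over all genes the shares were 1.67% and 3.34%. Cyclic loess shrank both medians to 0.11 and -0.11 and turned that of the mean from -0.27 to 0.08.

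None of these ribosomal genes passed limma's adjusted threshold, and 4 higher and 10 lower had an unadjusted p under 0.05. Over all genes 3.15% were higher and 6.6% lower at that limma p. In the top level class it was 163 higher and 398 lower of 2836 genes. Rpl9 of the large subunit had 6.40 and 9.07 on input and 10.36 and 10.27 with IgG, while Rpl13 had 10.20 and 11.06 against 8.85 and 7.53. Rplp0, the stalk protein, had 8.04 and 10.50 against 6.64 and 6.67, and Rpl32 had 5.92 and 7.34 against 7.16 and 10.62. Mitochondrial ribosomal proteins showed no such split: the median of 68 was -0.14 in WT and -0.07 in HD. Mrps33 was the 1 member 2-fold higher in both pools (1.47%, beside 1.67% of all genes).

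Respiratory chain and ATP synthase genes followed the cytosolic ribosomal genes. The median of 75 was 0.80 in WT and -0.91 in HD, from median values of 7.00 on input and 7.92 with IgG in WT and 8.34 and 6.95 in HD. Of these 75, 34 were lower by 2 or more in HD than in WT (45.3%, beside 8.64% of all genes and 23.0% of the top level class). At 2-fold in both pools 2 were higher (2.67%) and 8 lower (10.7%), beside 4.3% and 9.87% of the top level class. Over all genes the shares were 1.67% and 3.34%. No member passed limma's adjusted threshold, with 3 higher and 9 lower at an unadjusted p under 0.05. Beside these stand 3.15% and 6.6% of all genes, and 163 and 398 of the 2836 genes of the top level class. Atp5d, the δ subunit of ATP synthase, had 10.98 and 11.29 on input and 9.14 and 5.98 with IgG. Under cyclic loess the medians were 0.68 and -0.37, so the directions held and the HD value was smaller.

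Markers of medium spiny neurons went both ways, with a median of 0.29 in WT and -0.17 in HD over 36 genes. The difference was lower by 2 or more in HD than in WT for 12 of them (33.3%, beside 8.64% of all genes and 23.0% of the top level class). The HD IgG array was below the WT IgG array for 31 (86.1%, beside 44.3% of all genes and 56.5% of that class). The HD median changed sign with the scaling, to 0.05 with cyclic loess and 0.09 with quantile normalization. Of the 36 genes, 2 were 2-fold higher in both pools (5.56%) and 3 lower (8.33%), beside 4.3% and 9.87% of the top level class. At any size 12 were higher in both pools and 12 lower in both. Penk, the enkephalin precursor of the indirect pathway, had 9.64 and 8.30 on input and 11.03 and 9.96 with IgG (1.52 ± 0.25). Gnal, the olfactory-type G protein α subunit of striatum, had 4.52 and 5.58 against 9.12 and 6.88. Meis2 was given above, and Tmem158 had 10.29 and 9.92 against 7.76 and 7.04 (-2.70 ± 0.27, limma adjusted p = 0.108). Kcnab1, a potassium channel subunit, was lower by -1.51 and -1.77. Penk and Kcnab1 lie outside the rule for named genes and were named after their values were seen.

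The signal protein and phosphodiesterase of these neurons differed by pool. Ppp1r1b had 11.07 on input and 11.04 with IgG in WT, and 10.30 and 8.32 in HD. Pde10a, the striatal phosphodiesterase, had 12.20 and 11.97 in WT and 11.34 and 9.08 in HD. Both were near input on the WT arrays and lower with IgG on the HD arrays. They too were named after their values were seen.

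Synaptic mRNAs at 2-fold in both pools were all on the lower side: 4 of 25 postsynaptic genes (16.0%) and 4 of 30 presynaptic genes (13.3%), with none higher. Over all genes 3.34% were lower, and 9.87% of the top level class. The medians were -0.07 in WT and -0.54 in HD for the postsynaptic list and 0.20 and -0.42 for the presynaptic list. Under quantile normalization the postsynaptic median of the mean turned from -0.37 to 0.01, and the presynaptic one from -0.17 to 0.04. The postsynaptic HD median was 0.20 with cyclic loess. No member of either list passed limma's adjusted threshold. At an unadjusted p under 0.05 there were 6 lower and 0 higher postsynaptic genes, and 6 lower and 1 higher presynaptic genes. Over all genes 6.6% were lower and 3.15% higher at that limma p. In the top level class it was 398 lower and 163 higher of 2836 genes.

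Arc, the activity-regulated mRNA carried into dendrites, had 11.08 and 9.86 on input and 7.11 and 6.37 with IgG, a difference of -3.73 ± 0.77 (limma, adjusted p = 0.311). Grm5, the metabotropic glutamate receptor 5, had 8.03 and 7.13 against 5.17 and 3.76. The CPEB4 arrays of Grm5 were higher than input, at 10.22 and 8.48. Camk2b, the β subunit of CaM kinase II, had 10.35 and 9.93 on input and 8.91 and 5.90 with IgG.

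Of the presynaptic genes, Syngr1, a synaptic vesicle protein, had 10.77 and 11.16 on input and 8.51 and 6.96 with IgG, and Rph3a, rabphilin 3A, had 10.15 and 9.11 against 8.07 and 6.30 (-2.45 ± 0.29, limma adjusted p = 0.146). Syp, synaptophysin, was higher with IgG instead, with 8.44 and 11.11 on input and 11.49 and 11.92 with IgG. Another probe set of Rph3a did not follow, with 0.39 in WT and -0.16 in HD. Among 19 dendritically localised mRNAs 4 were 2-fold lower (21.1%, beside 3.34% of all genes and 9.87% of the top level class) and none higher, and the medians were 0.24 in WT and -1.38 in HD, or -0.32 and -0.55 with cyclic loess. Adcyap1r1, the receptor of the peptide PACAP, had 8.61 and 7.46 against 4.71 and 5.11.

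Among markers of glia, members at 2-fold in both pools were all lower: 2 of 14 astrocyte genes (14.3%), 2 of 14 oligodendrocyte genes (14.3%) and 2 of 11 microglia genes (18.2%), beside 3.34% of all genes and 9.87% of the top level class. The astrocyte genes were Clu, clusterin, with 10.64 and 11.07 on input and 7.67 and 7.12 with IgG (-3.46 ± 0.41, limma adjusted p = 0.146), and Mlc1, with 10.13 and 9.80 against 9.01 and 8.52. Another Clu probe set differed by -2.72 and -4.24, and a further one by 2.16 and 0.00. The oligodendrocyte genes were the myelin genes Mobp (-2.34 ± 0.86) and Mag (-1.31 ± 0.58). The next strongest Mobp probe set differed by 4.21 in WT and -0.42 in HD, and no other Mobp probe set was 2-fold lower in both pools. The microglia genes were the complement genes C1qc (-1.83 ± 0.37) and C1qa (-1.62 ± 0.38). Over all genes 1.67% were 2-fold higher in both pools. At any size 3 microglia genes were higher in both pools and 5 lower in both, and the median of the mean was -0.02. Aif1 of that list was higher with IgG, by 4.82 in WT and 0.19 in HD. Of the astrocyte genes 0 were higher in both pools and 5 lower, and of the oligodendrocyte genes 1 and 6. No marker of interneurons, oligodendrocyte precursors, endothelium, choroid plexus or blood was 2-fold in both pools in the same direction.

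Genes of cortical excitatory neurons, a neighbouring tissue, had the lowest median of the mean, -0.60 over 9 genes, with 7 lower in both pools and 2 higher in both. None of them was 2-fold in both pools.

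Shares of the remaining lists stand beside 1.67% higher and 3.34% lower over all genes, and 4.3% and 9.87% in the top level class. Of 41 genes of import into the endoplasmic reticulum and the unfolded protein response, 3 were 2-fold higher (7.32%) and 4 lower (9.76%). Xbp1 and Hsp90b1, a chaperone of that compartment higher by 4.27 in WT and 1.63 in HD, were among the higher. Calr, calreticulin, with 10.45 and 10.02 against 8.74 and 6.81, was among the lower. Another probe set of Hsp90b1 was lower in both pools (-1.01 and -0.60), and another of Calr was lower too (-1.15 and -6.42). Of 31 poly(A) and 3′ end factors 1 was 2-fold higher (3.23%) and 2 were lower (6.45%). The higher 1 was Pabpn1, the nuclear poly(A)-binding protein, with 6.21 and 8.51 on input and 9.82 and 9.77 with IgG. Of these 31 factors 7 were higher in both pools and 17 lower in both, with a median of the mean of -0.21. Of 21 splicing factors, Hnrnpa3 was 2-fold higher at 1.75 ± 0.36 and 1 was lower (4.76% each way).

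Of 25 histone genes 1 was 2-fold higher (4.0%) and 3 were lower (12.0%), beside 1.67% and 3.34% of all genes. H2bc4 was higher (4.60 and 4.62 on input, 6.02 and 7.75 with IgG), and H2ax was among the lower at -2.12 ± 0.66. The histone median was -0.39 in WT and -0.33 in HD, the latter 0.00 with quantile normalization. Of 51 keratin and epidermal genes, 3 were higher (5.88%), with Sprr2a1 and Lce1h (2.05 ± 0.47) the larger, and 1 was lower (1.96%). Proteasome subunits had a median of the mean of 0.37 over 28 genes, 0.47 with cyclic loess and 0.52 with quantile normalization. Of these subunits 1 was 2-fold higher (3.57%) and none lower. Of 14 immediate early genes Arc alone was lower (7.14%). Of 7 immunoglobulin genes Igha alone was lower (14.3%), at 9.41 and 9.08 on input and 5.90 and 7.36 with IgG. No receptor gene of smell or taste and no gene of antigen presentation or of Fc receptors, the proteins that bind antibodies, was 2-fold in both pools (13 genes in each list). Of 133 zinc finger genes 1 was higher (0.752%) and 6 were lower (4.51%). Zfp622 had 7.17 and 8.01 on input, 4.01 and 4.10 with IgG, and 9.92 and 8.60 with CPEB1.

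Among 19 mRNAs reported elsewhere as CPEB targets, Xbp1 was 2-fold higher with IgG and Sumo2 2-fold lower. Each is 5.26% of the list, beside 1.67% and 3.34% of all genes, and the median of the mean was -0.27. Cpeb3 was the only family member above the filter, with 7.14 and 7.58 on input and 9.30 and 7.29 with IgG. Its CPEB1 and CPEB4 arrays lay between 9.51 and 10.17. Of 21 tubulin, actin and housekeeping genes none was 2-fold in both pools, and medians were 0.89 in WT and -0.29 in HD, the latter 0.63 with cyclic loess. Actb, β-actin, had 11.18 and 11.68 on input and 12.11 and 11.09 with IgG, and Gapdh had 11.63 and 11.86 against 12.52 and 11.95. For Actb the sign of the difference turned between the pools.

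**Figure D5:**
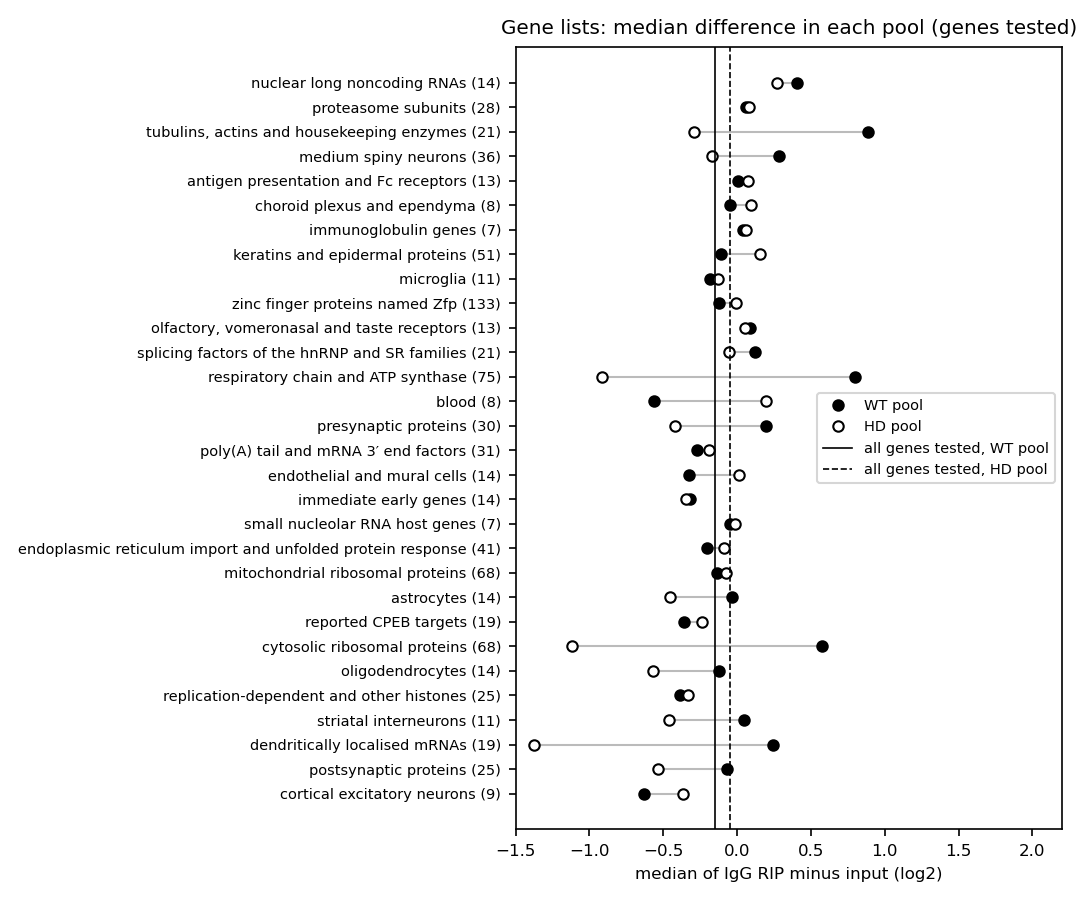
Median log2 difference between IgG RIP and input (x axis) of each gene list (y axis, with the number of genes tested) in the WT pool (filled) and the HD pool (open); vertical lines mark the median over all genes tested in each pool. Nuclear long noncoding RNAs lie to the right in both pools, and the lists of cytosolic ribosomal proteins and of the respiratory chain straddle the lines, at 0.57 and -1.12 and at 0.80 and -0.91.

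The counts at 2-fold in both pools differed more between classes by mean level than between classes by genomic span. Level was averaged over the same 8 arrays, so it is not independent of the differences. In the lowest level class the median was 4.64 on the WT input and 4.50 on the HD input. That leaves less room for a 2-fold drop than in the higher classes. Span is the length of a gene in the genome, not of its RNA. Why the counts rose with level was not tested. In the 4 equal classes by mean over the 8 arrays, of 2836 or 2837 genes each, 9, 20, 38 and 122 were 2-fold higher from the lowest to the highest class, and 11, 22, 66 and 280 were 2-fold lower (9.87% of the highest class). In the highest class the median was -0.04 in WT and -0.45 in HD. In 4 equal classes by genomic span in RefSeq, the share higher was 1.53%, 1.46%, 1.67% and 2.06% from the shortest to the longest, and the share lower 3.48%, 3.27%, 3.19% and 3.44%. The median span was 26.0 kb for the genes 2-fold higher, 19.6 kb for those lower and 19.7 kb for the rest. Probe sets whose suffix x_at marks probes shared with other sequences were 2-fold lower for 8.67% of 300 genes, beside 2.77% of 8705 genes with plain probe sets. The x_at genes also had higher median values on the WT and HD inputs, 6.34 and 6.58 beside 5.46 and 5.39. Level and kind of probe set were not separated.

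Between the pools, 980 genes had a difference lower by 2 or more in HD than in WT (8.64%) and 288 one higher by 2 or more (2.54%). In 255 genes the difference was 2-fold higher in WT and 2-fold lower in HD (2.25%), and the reverse held in 43 (0.379%). Each of these values rests on 1 array per fraction and pool, so no test was made. Between the inputs of the pools, which are bulk lysates, fewer cells of a type and less RNA per cell cannot be told apart. Ndufa3, a complex I subunit, had the lowest value, -11.64. Its difference was 4.34 in WT and -7.30 in HD, with inputs of 5.66 and 10.92.

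Sugp2, a SURP and G-patch domain protein, went from 3.38 to 9.50 in WT and from 9.27 to 4.75 in HD, and Ubfd1 differed by 5.24 and -5.25. Pebp1, a Raf kinase inhibitor, went from 5.63 to 10.06 and from 9.14 to 5.65. On the chosen probe sets of all 4 genes the input and the IgG array exchanged places between the pools. Hsbp1, which binds heat shock factor, did so as well, with differences of 5.80 and -2.53. A second probe set above the filter did the same for Ndufa3 (4.90 and -6.97) and Hsbp1 (2.15 and -3.10). For Sugp2 it did so by small amounts only (0.19 and -0.37). It did not for Pebp1 (-0.64 and -1.63) or Ubfd1, where it was lower with IgG in both pools.

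In the other direction Pacs2, a sorting protein, went from 9.49 to 4.58 in WT and from 6.79 to 11.59 in HD, while its other probe set gave -1.37 and -0.37. Tnpo2, a nuclear import receptor, went from 9.85 to 4.34 and from 5.46 to 8.04, but both of its other probe sets were not 2-fold apart between the pools. Vmn1r48, a vomeronasal receptor, rested on 1 array: its WT input stood at 9.91 and its other 7 arrays between 3.20 and 3.84.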

How the data were processed

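The authors deposited 1 log2 value per probe set and array, on a mouse 3′ expression array. They are RMA values, per the submitters' processing notes. The version, and whether 1 run covered all 8 arrays, are unknown here. Of 45101 probe sets, 28898 had 1 gene symbol, 551 several and 15652 none; 28689 matched a gene of RefSeq (GRCm38.p6). For 17097 genes the strongest probe set with 1 symbol stood for the gene, strength being the mean of all 8 arrays, IgG included. A gene was tested where that mean exceeded 4.23. Spans and biotypes are those of RefSeq; protein length was planned as a property and not used here, since no protein table was at hand.

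limma 3.58.1 in R 4.3.3 was fitted to all 8 arrays with fraction (4 levels) and genotype pool as terms, with Benjamini-Hochberg adjustment over the 11345 genes, and was tested on simulated data. Each fraction of each pool is 1 array, so the 2 pools stand in for replicates, and the number of arrays limits the precision. The p-values set a difference against how far the differences among the 4 fractions disagree between the pools. That spread includes any effect of genotype on those differences. A pool's arrays come from the same animals, which is why the pool is in the model; across genes the HD minus WT deviations of input and IgG had a correlation of -0.09. A second rule asked for 2-fold in the same direction in both pools.

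Genes named are those past the adjusted threshold; the 15 highest and 15 lowest at 2-fold in both pools (clone identifiers passed over); the 6 highest and 6 lowest HD minus WT differences; up to 4 members of each gene list; the 10 with the widest gap of IgG above the other arrays; and Actb, Gapdh, Malat1, Cpeb1 and Cpeb4. Other genes are named after their values were seen: Glo1, Snrpn, Penk, Kcnab1, Ppp1r1b, Pde10a, Drd1, Drd2 and Tac1. The comparison and the gene lists were chosen with earlier results of these data known. Lists are described by counts and medians and were not tested as sets. Alternatives were another filter, probe sets averaged per gene, all probe sets, 3 scalings, no pool term, another variance model, the 4 arrays alone, other folds, and each array left out.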

Additional observations from a re-analysis of the deposited data

Results flagged for a closer look

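Cytosolic ribosomal protein genes had medians on opposite sides of input in the 2 pools, 0.57 in WT and -1.12 in HD, and respiratory chain and ATP synthase genes likewise, 0.80 and -0.91. Differences between the pools rest on 1 array per fraction and pool and were not tested.

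Single genes for which IgG lay on opposite sides of input in the 2 pools are given by the HD minus WT value of the log2 difference. It was -11.64 for Ndufa3, -11.02 for Ccl27a, -10.64 for Sugp2, -10.49 for Ubfd1, -8.34 for Hsbp1 and -7.92 for Pebp1. It was 9.71 for Pacs2, 8.09 for Tnpo2, 7.56 for Tma7, 6.67 for Sorbs2 and 6.35 for Smim13. Ccl27a, a chemokine, went from 4.52 on input to 9.38 with IgG in WT and from 9.84 to 3.68 in HD. Tma7 went from 8.30 to 4.67 in WT and from 4.27 to 8.19 in HD.

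Probe sets with no gene symbol entered no comparison above. Of 6031 with a mean over 4.23, 129 were 2-fold higher with IgG in both pools (2.14%) and 179 lower (2.97%), beside 1.67% and 3.34% of named genes, and the largest mean difference was 5.22.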

How the results depend on the processing

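As deposited, limma called 2 genes higher and 1 lower. The counts were 0 and 0 with all probe sets (756 and 1378 at an unadjusted p under 0.05), with trended robust eBayes (363 and 681) and with only the 4 arrays (259 and 551), and 0 to 0 for both without any 1 array. Adjusted p of the called genes then lay between 0.0944 and 0.322; a lone array was assumed to vary like the others. The counts were 4 and 5 with cyclic loess and 4 and 4 with quantile normalization. With no replicate block, the pool left out of the model, 2 were lower, as with the 75th percentile filter, Cds2 being the addition in both. At 2-fold in both pools 189 were higher and 379 lower: 83 and 248 with probe sets averaged per gene, 464 and 913 at 1.5-fold and 161 lower and 73 higher at 3-fold. Those higher were 288 with cyclic loess and 320 with quantile normalization, against 295 and 354 lower. Genes with an HD minus WT difference of 2 or more (288) were 154 with the probe set mean and 498 with quantile normalization, and those of -2 or less (980) were 572 with the probe set mean. Actb (0.17) lay between -0.40 and 0.74 with 1 array left out, below 0 without the WT input or the WT IgG array (-0.27). With the probe set mean Ttr reversed to -2.26 and Glo1 to -0.25. The median of all genes, -0.11, was -0.02 with cyclic loess. Without an IgG or input array a count in both pools cannot be given. The causes were not tested.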
